A study of Mus musculus with 2 samples.

Results

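Metallothioneins are small cysteine-rich proteins that bind zinc and copper, and the Mt1 and Mt2 genes are switched on by metals, glucocorticoids and oxidative stress. Mt1 and Mt2 are expressed in many tissues, whereas Mt3 is known mainly from brain, where neurons and astrocytes express it. Iron enters most cells as transferrin (Trf) bound to the transferrin receptor (Tfrc), is stored in a shell of ferritin heavy (Fth1) and light (Ftl1) chains, and is oxidised for loading onto transferrin by ceruloplasmin (Cp), a copper-carrying ferroxidase. Free iron feeds the production of reactive oxygen species, which form in the cochlea after loud sound. The 8 genes described here were taken by symbol from the 32285 genes in each matrix, and all 8 were found once.

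The cells came from the cochleae of wild-type C57BL/6J mice, 4 to 6 weeks old, exposed for 2 h to noise of 105 dB in an octave band of 8 to 16 kHz. One group of ears, called drug-then-noise, had received a drug (90 mg/ml) before the noise. The labels do not spell it out beyond the abbreviation VPA in the series title, and do not state how it was given. The other group, called noise-only, was the untreated ear on the opposite side of the same animals, so both groups were exposed to noise and there was no ear without noise. Sensory epithelium was dissected 2 days later, dissociated with trypsin, and captured as 1 droplet library per group, each said to hold 5 ears. Because each group is 1 library of pooled ears, no difference between the groups has a replicate check, no p-value is given, and every interval below covers counting error only. Whether the drug reached the untreated ears of the same mice is not known.

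After filtering, 16618 of 18545 noise-only barcodes and 17536 of 21773 drug-then-noise barcodes were kept, where the labels state roughly 20000 cells. They held 33790872 and 30725156 unique molecular identifiers (UMIs, one per captured transcript molecule), with medians of 1128 and 1128.5 per cell. Of the kept barcodes, 87 sequences occurred in both libraries. Clustering without the 8 genes gave 36 clusters, of which 31 were named as 23 cell classes from marker genes, and the 19 with 100 or more cells in both libraries were compared. The tissue was labelled sensory epithelium, yet hair cell-like cells made up 106 and 155 cells, and myelinating Schwann-like cells were the largest class with 5598 and 3558. In the drug-then-noise library only 3 of 8 choroid plexus markers were above the other cells in the small cluster of that name, which is not compared. The mitochondrial share of UMIs was 4.45% in noise-only and 5.75% in drug-then-noise cells. Levels are given as CPM, the UMIs of a gene scaled to 1000000 UMIs of the class. They are not divided by transcript length, so each gene is compared between classes and not with other genes.

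The mouse metallothionein genes lie in 1 stretch of chromosome 8 on the plus strand (GRCm38, GENCODE M21 gene bounds). Mt3 (ENSMUSG00000031760) spans chr8:94152607-94154146, Mt2 (ENSMUSG00000031762) chr8:94172664-94173568 and Mt1 (ENSMUSG00000031765) chr8:94179082-94180327. Metals act on Mt1 and Mt2 through the factor MTF1, which binds metal response elements with the core TGCACNC or TGCGCNC on either strand. The 250 bases before the RefSeq start of Mt1, Mt2 and Mt3 are printed here. They run 5′ to 3′ on the gene's strand from RefSeq on GRCm38.p6, with each core in capitals.
Mt1, chr8:94178839-94179088: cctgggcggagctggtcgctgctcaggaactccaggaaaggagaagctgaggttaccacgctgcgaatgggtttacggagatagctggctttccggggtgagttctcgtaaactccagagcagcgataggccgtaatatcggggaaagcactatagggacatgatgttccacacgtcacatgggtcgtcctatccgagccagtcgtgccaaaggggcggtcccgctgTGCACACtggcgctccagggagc
Mt2, chr8:94172368-94172617: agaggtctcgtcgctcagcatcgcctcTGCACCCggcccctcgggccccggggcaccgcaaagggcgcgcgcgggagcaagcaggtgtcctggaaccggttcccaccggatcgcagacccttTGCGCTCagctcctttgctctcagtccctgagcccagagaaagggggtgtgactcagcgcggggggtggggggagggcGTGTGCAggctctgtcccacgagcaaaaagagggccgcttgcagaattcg
Mt3, chr8:94152357-94152606: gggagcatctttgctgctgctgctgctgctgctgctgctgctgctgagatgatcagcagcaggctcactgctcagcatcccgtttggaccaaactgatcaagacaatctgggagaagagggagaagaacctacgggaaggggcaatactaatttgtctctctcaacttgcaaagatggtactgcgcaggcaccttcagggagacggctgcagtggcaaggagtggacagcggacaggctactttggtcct

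The Mt2 window held 3 metal response cores, whose leftmost bases lay 50, 128 and 223 bases before the start, and the Mt1 window held 1, at 23 bases. The Mt3 window held 0. The RefSeq start differs from the GENCODE bound for Mt1 and Mt2. The Mt1 window ends at 94179088, past the bound of 94179082, and the Mt2 window at 94172617, short of 94172664. The counts depend on the start used, and the genes are not ranked by them. Among 32851 windows of the same length, 21.4% held at least 1 core and 1.26% held at least 3. Mt2 also held 1 antioxidant response core, TGACNNNGC, which 10.2% of windows held. Of the 8 genes, 7 had at least 1 window, and of the other 4 genes with windows only Tfrc held a core, 2 that overlap in 1 of its windows. These matches describe letters in a window and do not show binding, and cores beyond the windows were not searched. Their bearing on the levels given below was not tested.

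Mt1 was highest in glia of the nerve. In myelinating Schwann-like cells it stood at 5014 CPM in noise-only and 5117 in drug-then-noise cells, and in non-myelinating Schwann- or satellite glia-like cells at 4006 and 3631. Both classes lay above every other compared class in both libraries. In the drug-then-noise library osteoblast- or osteocyte-like cells followed, at 1881 CPM against 1020 in noise-only cells. A run of classes with overlapping counting intervals came after, endothelial-like cells at 1676 and 1714 CPM, strial intermediate-like cells at 1714 and 1618, strial marginal-like cells at 1741 and 1519, and macrophage-like cells with 1636 and 1615. The lowest level was in organ of Corti supporting cell-like cells, at 344 and 356 CPM, 14.6-fold and 14.4-fold below myelinating Schwann-like cells.

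The spread of Mt1 among Schwann-like cells was larger than any difference between the libraries there. In the cluster led by Pou3f1, Foxd3 and Egr2 (cluster 0), Mt1 stood at 7033 and 7050 CPM. In the cluster led by Ncmap (cluster 2) it was 3173 and 3643, and in the one led by Cntf and Otop1 (cluster 3) 2714 and 3095. With every cell thinned to 1000 UMIs, 92.0% of noise-only and 94.2% of drug-then-noise myelinating Schwann-like cells had a Mt1 UMI, and the middle cell had 3 and 4. The same shares were 18.1% and 23.1% in organ of Corti supporting cell-like cells, the class with the least Mt1.

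2 small populations outside the compared classes held more Mt1 still in both libraries. In astrocyte-like cells, with 28 and 201 cells, Mt1 was 10614 and 9597 CPM. An unnamed cluster of 331 and 518 cells (cluster 14), led by Ceacam10, Them5 and Igfbp6, had 7685 and 8115 CPM. Of the myelinating Schwann markers 7 were detected in cluster 14, but none was among its 10 leading genes, so it was not named. The choroid plexus-like cluster (53 and 57 cells) held 678 CPM in noise-only and 10121 in drug-then-noise cells, the most of these populations in the latter library.

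Mt2 had its upper levels in the same glia, apart from osteoblast- or osteocyte-like cells, where the libraries differed (213 and 690 CPM). It stood at 532 and 552 CPM in myelinating Schwann-like cells, 409 and 356 in non-myelinating Schwann- or satellite glia-like cells, and 260 and 274 in endothelial-like cells. It was 46.0 and 48.4 CPM in organ of Corti supporting cell-like cells. Astrocyte-like cells held 2159 and 1517 CPM, and cluster 14 held 1359 and 1381. The choroid plexus-like cluster, whose cells differ in markers between the libraries, held 32.2 and 1659. Across the 19 classes, the gene whose mean level followed Mt1 most closely among 10264 searched was Mt2 (Pearson r of log2(CPM + 1) 0.847, described over classes that share 2 libraries), ahead of the collagen genes Col14a1 (0.801) and Col28a1 (0.796). After Mt1, the genes nearest to Mt2 were Ssh1 (0.836) and Angptl4 (0.779). Mt3 had r of 0.560 with Mt1 and 0.376 with Mt2.

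The proportion of Mt1 to Mt2 was not the same in all classes. Myelinating Schwann-like cells had 9.42 Mt1 UMIs per Mt2 UMI in noise-only (95% interval 9.05 to 9.81) and 9.26 in drug-then-noise cells (8.80 to 9.77). Endothelial-like cells had 6.43 (5.87 to 7.06) and 6.27 (5.75 to 6.84), and macrophage-like cells 14.3 (12.4 to 16.6) and 18.2 (15.5 to 21.6). Keratinized or mucosal epithelium-like cells had 4.59 and 4.62. The intervals of these 4 classes do not overlap in either library.

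**Figure D1:**
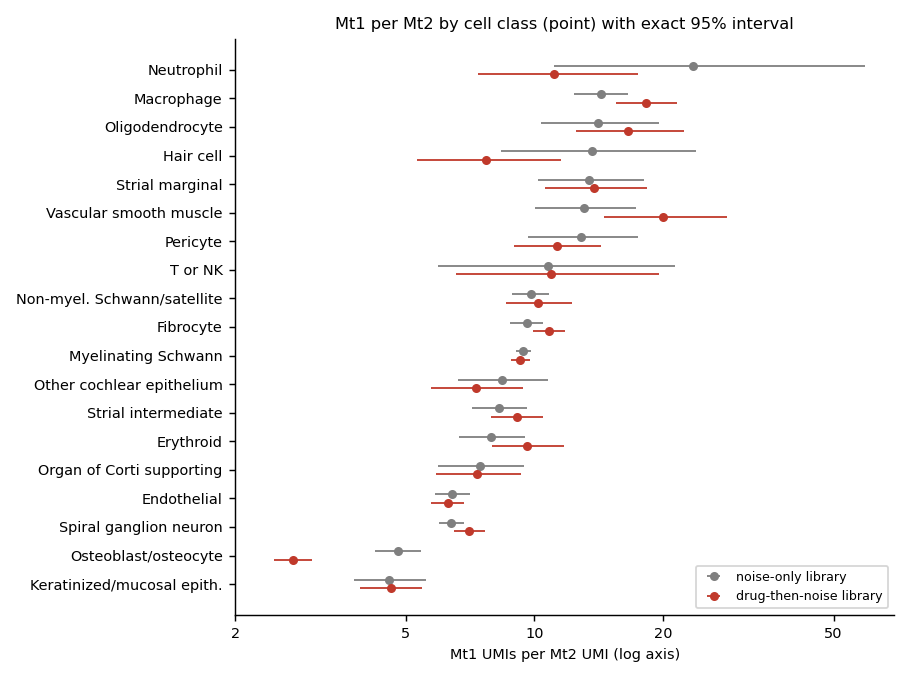
Mt1 UMIs per Mt2 UMI (log axis) in each compared class, noise-only in grey and drug-then-noise in red, with exact 95% intervals for counting error. Macrophage-like cells lie at 14.3 and 18.2 and endothelial-like cells at 6.43 and 6.27, while osteoblast- or osteocyte-like cells stand apart between the libraries at 4.79 and 2.73.

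Among the compared classes, Mt3 was concentrated in a few that were not the same as for Mt1. The unnamed clusters together held 18.7% and 27.8% of all Mt3 UMIs, with 7120 and 10003 UMIs in cluster 14. Spiral ganglion neuron-like cells held 33.0% and 25.8%, and myelinating Schwann-like cells 31.15% and 22.45%. Strial marginal-like cells, the potassium-secreting epithelium of the stria vascularis, had the highest level among compared classes, at 3409 CPM in noise-only and 4046 in drug-then-noise cells. Myelinating Schwann-like cells followed at 2477 and 2930, and spiral ganglion neuron-like cells at 2358 and 2213. These 3 classes did not overlap each other's counting intervals. Next came erythroid-like cells in the noise-only library (524 CPM, and 422 in the other) and non-myelinating Schwann- or satellite glia-like cells in the drug-then-noise library (960 CPM, and 466 in the other). All other compared classes were lower in each library, down to 82.6 CPM. Of the classes not compared, oligodendrocyte precursor-like cells (44 and 56 cells) held 1278 and 1354 CPM. The choroid plexus-like cluster, whose cells differ in markers between the libraries, held 2232 and 7536.

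Glial types differed in Mt3. Oligodendrocyte-like cells, the myelinating glia of the central nervous system, held 184 and 173 CPM, against 4379 and 4097 in astrocyte-like cells. Within the myelinating Schwann-like class Mt3 varied little, at 2305 and 2776 CPM in cluster 0, 2559 and 2777 in cluster 2 and 2722 and 3364 in cluster 3. The highest Mt3 of the 35 clusters with cells in both libraries was in cluster 14, at 9803 and 10149 CPM. Of cells thinned to 1000 UMIs, 84.2% and 89.6% of myelinating Schwann-like, 84.6% and 83.0% of spiral ganglion neuron-like and 89.3% and 95.2% of strial marginal-like cells had a Mt3 UMI. In endothelial-like cells, where the noise-only level was lowest, the share was 9.04% and 10.1%.

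The share of myelinating Schwann-like cells with Mt3 differed little by whether a cell had Mt1. At 1000 UMIs per cell, Mt3 was found in 84.2% of noise-only myelinating Schwann-like cells with a Mt1 UMI and in 84.4% of the 109 without one. The corresponding shares in drug-then-noise cells were 89.4% and 91.9%, the latter over 37 cells. In noise-only non-myelinating Schwann- or satellite glia-like cells they lay apart, at 37.9% of 235 cells with Mt1 and 17.4% of 46 without. Over classes, the genes nearest to Mt3 were Rap1gap (r 0.844), Nipal1 (0.784) and Ldhb (0.769), the lactate dehydrogenase B chain.

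**Figure D2:**
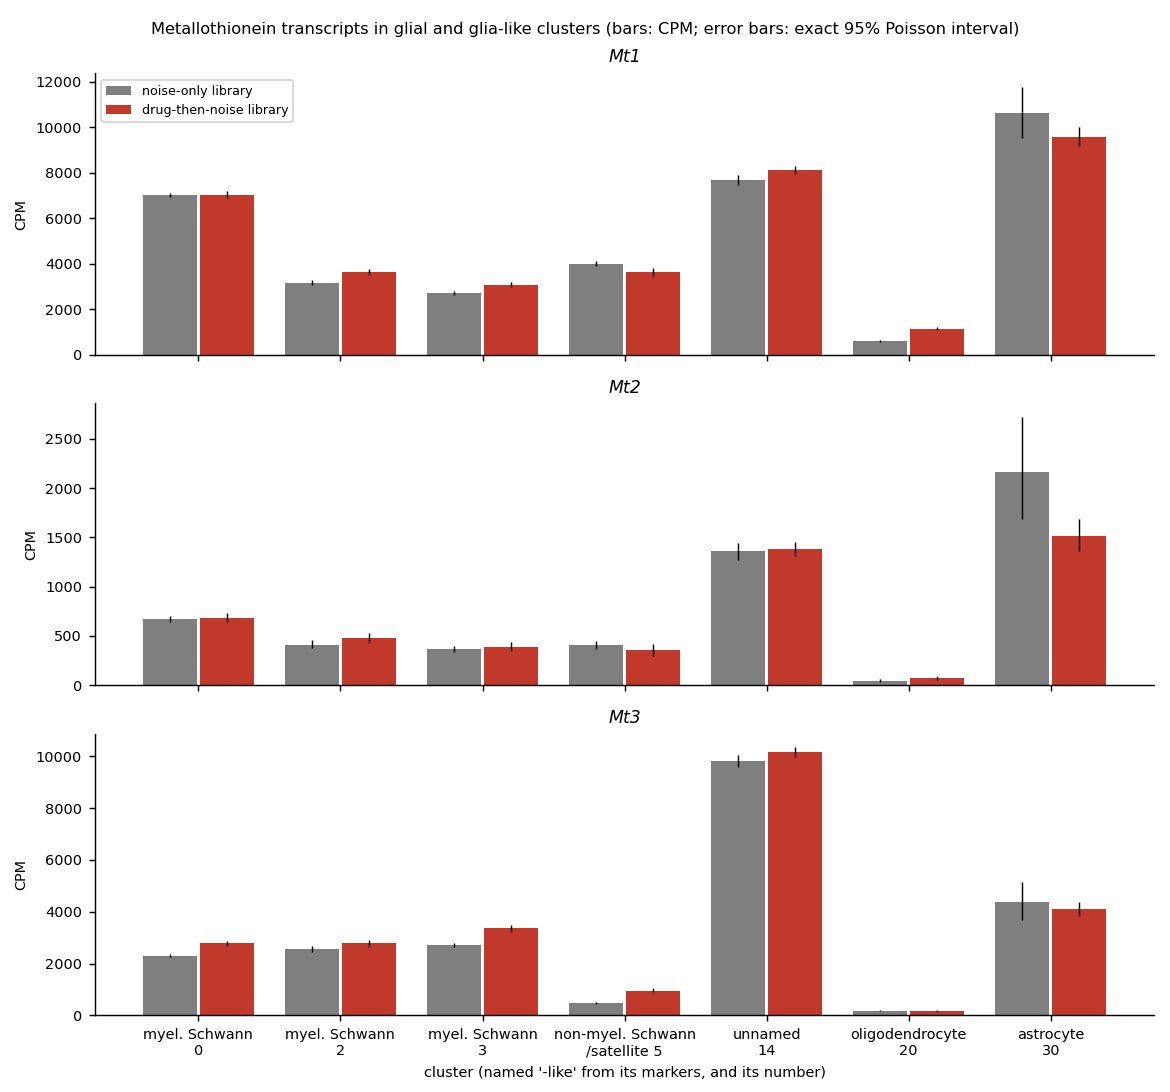
CPM of Mt1, Mt2 and Mt3 in glial and glia-like clusters (bars; grey noise-only, red drug-then-noise; error bars, exact 95% Poisson intervals). Mt1 is 7033 and 7050 in Schwann-like cluster 0 and 2714 and 3095 in cluster 3, Mt3 is 184 and 173 in oligodendrocyte-like cells, and cluster 14 holds 9803 and 10149 Mt3.

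Ferritin heavy chain transcripts were abundant in every class, with a 6.86-fold span in noise-only and 5.84-fold in drug-then-noise cells from the highest to the lowest class. Fth1 (ENSMUSG00000024661, chr19:9980598-9985098, plus strand) was highest in oligodendrocyte-like cells in the noise-only library, at 32802 CPM against 25902 in the other, and in the melanin-bearing strial intermediate-like cells in the drug-then-noise library, at 28689 against 27885. Myelinating Schwann-like, macrophage-like and spiral ganglion neuron-like cells followed, between 11956 and 13874 CPM, joined in the drug-then-noise library by keratinized or mucosal epithelium-like cells, at 13125 against 7718 in noise-only cells. T or NK-like cells had the least, at 4784 and 4911. The genes nearest to Fth1 over classes were Omg (r 0.817), a myelin glycoprotein gene, Hsd17b12 (0.802) and Rnf13 (0.802).

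The light chain followed another order. Ftl1 (ENSMUSG00000050708, chr7:45457944-45459884, minus strand) was highest in macrophage-like cells, at 5022 and 5450 CPM, and strial intermediate-like cells, at 4819 and 4531, whose intervals overlapped in part. Spiral ganglion neuron-like cells, rich in Fth1, had the least Ftl1, at 577 and 518 CPM. Oligodendrocyte-like cells, also rich in Fth1, held 1040 and 1063. Hexa, a lysosomal hexosaminidase gene, was near Ftl1 over classes (r 0.888). Ftl1 reads can be shared with a near copy: Ftl1-ps1 had 1288 and 1203 UMIs against 59672 and 56583 for Ftl1, and r of 0.986 with it, so the split between both is uncertain. The Fthl17 copies of the heavy chain had 0 UMIs, and Mt4, a metallothionein of stratified epithelia, had 11 and 8.

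Among the compared classes the ceruloplasmin level was highest in fibrocyte-like and then in pericyte-like cells. Cp (ENSMUSG00000003617, chr3:19957054-20009145, plus strand) stood at 1246 and 1205 CPM in fibrocyte-like cells, which held 56.9% and 58.3% of all Cp UMIs, and at 499 and 515 in pericyte-like cells. Within fibrocyte-like cells it was 1709 and 1628 CPM in cluster 4 (led by Fst, Inmt and Dpep1), 872 and 940 in cluster 7 (Slc4a11, Fxyd2 and Otos) and 1059 and 1293 in cluster 11 (Emilin2, Notum and Epha3). Spiral ganglion neuron-like cells held 9.04 and 6.90 CPM. An unnamed cluster led by Gpr83, Ccl11 and Aard (cluster 19) had 1834 and 1891. The unnamed clusters together held 20.93% and 17.55% of all Cp UMIs, and pericyte-like cells 3.66% and 4.34%. Colec12 (r 0.908), Pam (0.889) and Osmr (0.882) were nearest to Cp over classes.

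The receptor and the carrier of iron were at opposite ends in neurons. Tfrc (ENSMUSG00000022797, chr16:32608920-32632794, plus strand) was highest in spiral ganglion neuron-like cells, at 234 and 263 CPM, followed by endothelial-like cells at 124 and 134 and erythroid-like cells at 127 and 98.5, which overlapped. Slc16a1, a monocarboxylate transporter gene, was nearest to it (r 0.660). Trf (ENSMUSG00000032554, chr9:103204001-103230444, minus strand) was lowest in spiral ganglion neuron-like cells, at 13.2 and 9.20 CPM. It was highest in oligodendrocyte-like cells, at 5880 and 5126, then in fibrocyte-like cells at 971 and 2493, and next in macrophage-like cells, with 410 and 436 CPM. Of cells thinned to 1000 UMIs, 96.6% and 97.5% of oligodendrocyte-like cells had a Trf UMI, against 0.442% and 1.55% of spiral ganglion neuron-like cells. Apod (r 0.861), Cyp27a1 (0.805) and Mobp (0.765), a myelin gene, were nearest to Trf.

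**Figure D3:**
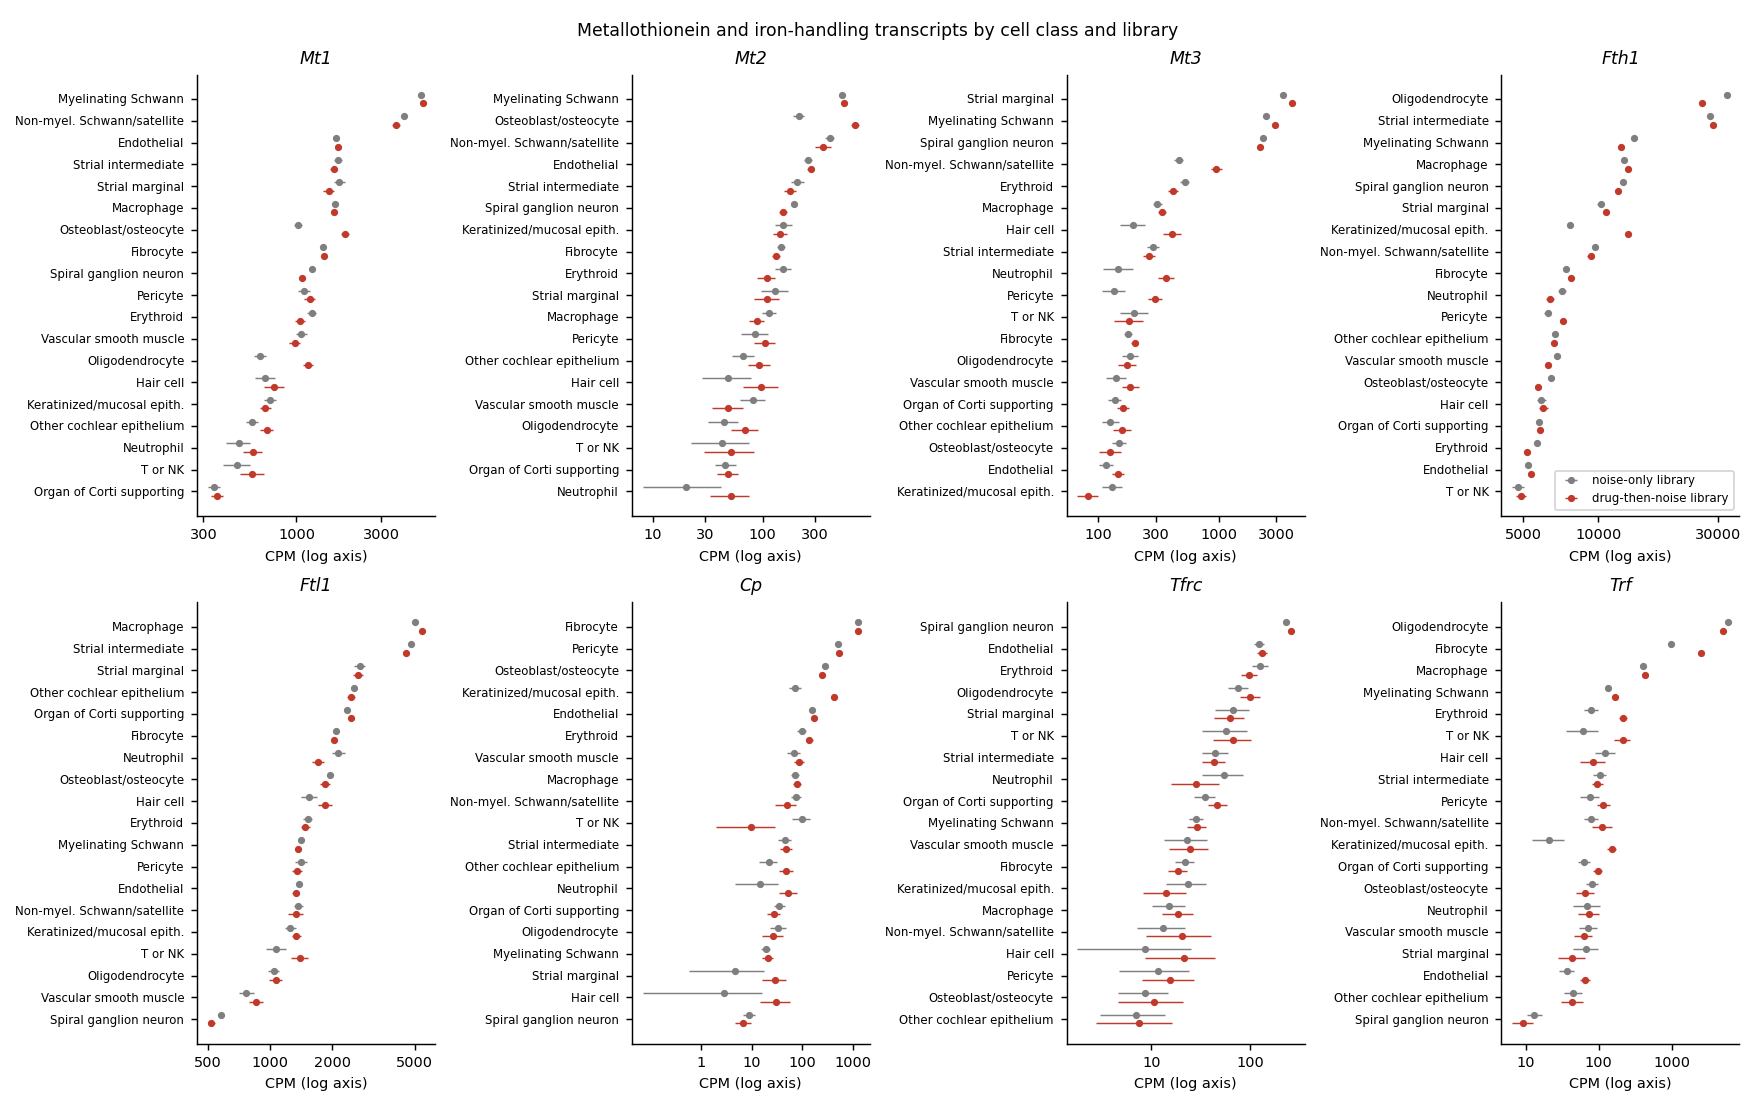
CPM (log axis) of the 8 genes in the 19 compared classes, ordered by the mean of both libraries (grey noise-only, red drug-then-noise; bars, exact 95% Poisson intervals). Mt1 is highest in Schwann-like cells, Mt3 in strial marginal-like cells, Fth1 (by that mean) and Trf in oligodendrocyte-like cells, Ftl1 in macrophage-like cells, Cp in fibrocyte-like cells and Tfrc in spiral ganglion neuron-like cells, and the library points of most classes lie close together.

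The drug-then-noise library was then set against the noise-only library, as the ratio of CPM. A gene is called higher where its level was at least 25% above the noise-only level and lower where it was at least 20% below (a ratio of 0.8), which is a measure of size and not a test. Over all cells, 1 of the 8 genes was higher and 0 were lower, where 7.57% of 14444 genes with at least 100 UMIs were higher and 6.86% lower. The one was Trf, at 368 CPM in noise-only and 590 in drug-then-noise cells, a ratio of 1.60 (95% counting interval 1.57 to 1.64). Cp reached 1.23 (1.20 to 1.27). The other 6 lay between 0.955 for Fth1 and 1.05 for Tfrc, with Mt1 at 0.978 (0.967 to 0.989), Mt2 at 1.03 (0.998 to 1.06) and Mt3 at 1.04 (1.02 to 1.05). The all-cell values also carry the change in cell make-up, since myelinating Schwann-like cells gave 36.6% of noise-only and 24.1% of drug-then-noise Mt1 UMIs.

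Within the 6 largest classes, 46 of 48 gene and class pairs had at least 100 UMIs. Of these 46, 7 were higher, 2 lower and 37 neither. The other 2 were Tfrc in macrophage-like cells (27 and 33 UMIs) and in pericyte-like cells (7 and 12). In myelinating Schwann-like cells none of the 8 genes was higher or lower, against 6.04% higher and 9.09% lower of 7412 genes, and Trf at 1.24 came nearest. Trf there ran from 1.04 to 2.09 over 13 alternatives, was past the fold in 6 of them, and was highest among cells with at least 1000 genes. In fibrocyte-like cells Trf alone was higher, against 8.60% of genes higher and 13.2% lower. In endothelial-like cells Mt3 and Trf were higher, against 5.29% higher and 7.72% lower. In macrophage-like cells Mt2 was lower, against 9.45% higher and 10.1% lower. In organ of Corti supporting cell-like cells Tfrc and Trf were higher and Cp lower, against 7.92% higher and 10.2% lower. In pericyte-like cells Mt3 and Trf were higher, against 6.48% higher and 13.9% lower.

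**Figure D4:**
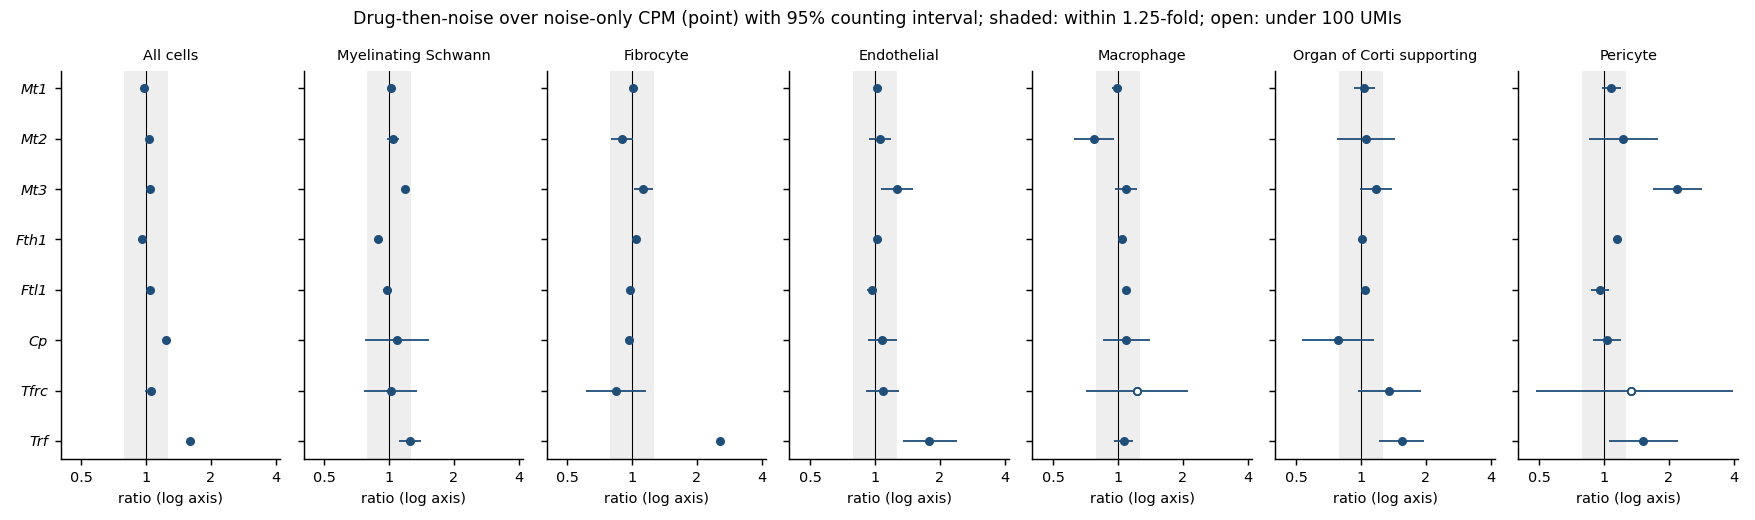
Ratio of drug-then-noise to noise-only CPM (log axis) for the 8 genes over all cells and in the 6 largest classes, with 95% counting intervals; the grey band marks ratios that are neither higher nor lower and open points pairs with under 100 UMIs. Mt1, Fth1 and Ftl1 stay inside the band in each panel, and Trf in fibrocyte-like cells lies furthest out at 2.57.

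Mt1, Fth1 and Ftl1, the most heavily counted of the 8 genes, stayed neither higher nor lower in each of the 6 largest classes. Mt1 ratios ran from 0.987 in macrophage-like to 1.08 in pericyte-like cells, Fth1 from 0.891 in myelinating Schwann-like to 1.15 in pericyte-like cells, and Ftl1 from 0.958 in pericyte-like to 1.08 in macrophage-like cells. In pericyte-like cells Mt1 was at 0.659 among cells with at least 1000 genes and at 1.40 in cells thinned to 1000 UMIs, past the fold on either side. The Mt1 ratio of 1.04 in organ of Corti supporting cell-like cells joined 1.33 (1.16 to 1.54) in cluster 8 and 0.726 (0.600 to 0.877) in cluster 24.

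Trf was past the fold in 4 of the 6 largest classes. Over the 19 compared classes, Trf and Mt3 each were higher in 7 and lower in 1, among pairs with at least 100 UMIs. The share of all genes past the fold was counted only in the 6 largest classes, so these counts are not shown to be unusual. Several of these ratios crossed 1 under an alternative, as listed in the closing section. In fibrocyte-like cells Trf was 2.57-fold higher in the drug-then-noise library (2.47 to 2.67), and most of the excess lay in 1 of the 3 clusters of the class. In cluster 7, led by Slc4a11, a fibrocyte ion transporter gene, Trf went from 1126 to 4263 CPM, 3.79-fold (3.58 to 4.00). In cluster 4 it went from 1409 to 1201, a ratio of 0.853, and in cluster 11 from 145 to 198, a ratio of 1.37. Cluster 7 also made up more of the class in the drug-then-noise library, 1013 of 2747 cells against 386 of 1796. Weighting the clusters by their noise-only share of UMIs gave 2.05, and keeping only cells with at least 1000 genes gave 4.58. Cp in cluster 7 was 1.08 and Fth1 1.07. Choroid plexus marker sums in fibrocyte-like cells differed between the libraries too, at 2622 and 48.2 CPM over 8 markers with 0 and 2 of them at 0, and their part in the result was not tested.

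**Figure D5:**
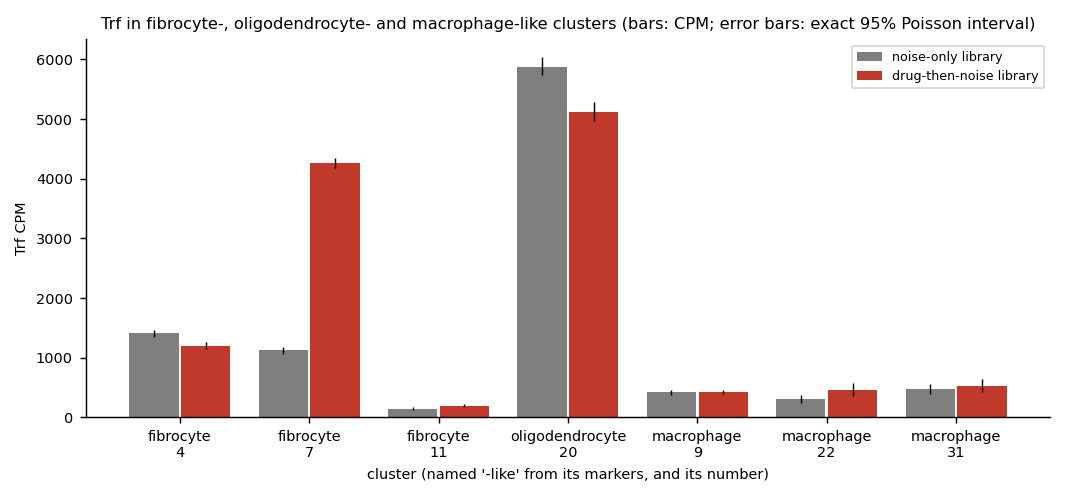
Trf CPM in the fibrocyte-, oligodendrocyte- and macrophage-like clusters (bars; grey noise-only, red drug-then-noise; error bars, exact 95% Poisson intervals). Cluster 7 goes from 1126 to 4263 while cluster 4 goes from 1409 to 1201 and oligodendrocyte-like cells from 5880 to 5126.

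In other classes Trf ratios rested on low levels. Trf went from 36.8 to 65.7 CPM in endothelial-like cells (1.79, 1.34 to 2.40), from 63.1 to 97.4 in organ of Corti supporting cell-like cells (1.55, 1.22 to 1.97) and from 77.0 to 117 in pericyte-like cells (1.52, 1.05 to 2.21). The organ of Corti value joined 1.22 (0.904 to 1.65) in cluster 8, the larger one, and 2.46 (1.64 to 3.76) in cluster 24, on 38 and 71 UMIs. With predicted doublets kept the class value was 2.37, and with cells thinned to 1000 UMIs the pericyte value was 2.55. Only 3.86% and 4.95% of endothelial-like cells thinned to 1000 UMIs had a Trf UMI. The summed markers of fibrocytes moved the same way in endothelial-like cells, from 154 to 279 CPM over 12 markers with 1 and 0 at 0, and in organ of Corti supporting cell-like cells, from 524 to 677 with 0 and 0 at 0. In pericyte-like cells they stood at 1327 and 1320, with 0 and 0 at 0. The 8 oligodendrocyte markers summed to 120 and 202 CPM in endothelial-like cells, with 3 and 0 at 0. In organ of Corti supporting cell-like cells they summed to 96.2 and 133, with 1 and 0 at 0, and in pericyte-like cells to 532 and 652, with 3 and 1 at 0. The part of the fibrocyte and oligodendrocyte markers in these Trf ratios was not tested. In oligodendrocyte-like cells, where Trf is most abundant, the ratio was 0.872 (0.837 to 0.908), and in macrophage-like cells 1.06 (0.959 to 1.18).

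Mt3 was more than 2-fold higher in 4 compared classes, neutrophil-like (147 and 366 CPM, 2.49, 1.81 to 3.47), pericyte-like, hair cell-like and non-myelinating Schwann- or satellite glia-like cells. The neutrophil-like value rested on 51 and 179 UMIs and was 1.13 among cells with at least 1000 genes. In the glia Mt3 went from 466 to 960 CPM, 2.06-fold (1.80 to 2.36), and the share of cells thinned to 1000 UMIs with a Mt3 UMI from 34.5% of 281 to 53.8% of 80. In pericyte-like cells it went from 136 to 297 CPM, 2.19-fold (1.69 to 2.86), with shares of 10.3% and 17.0%, and with predicted doublets kept the ratio was 1.43. In myelinating Schwann-like cells the ratio was 1.18 (1.15 to 1.22), and in endothelial-like cells 1.26 (1.06 to 1.5) at 116 and 146 CPM. The endothelial value went to the other side of 1 among cells with at least 1000 genes (0.963) and in cells thinned to 1000 UMIs (0.924). In macrophage-like cells the ratio of 1.09 joined 1.394 (1.158 to 1.680) in cluster 9, 1.445 (1.215 to 1.716) in cluster 22 and 0.877 (0.588 to 1.296) in cluster 31. Summed markers of myelinating Schwann cells did not move with Mt3 in pericyte-like cells, at 3154 and 2767 CPM over 10 markers with 0 and 0 at 0. Summed astrocyte markers did, from 43.5 to 227 CPM over 9 markers with 4 and 0 at 0, and from 235 to 353 in the non-myelinating glia, with 0 and 0 at 0. Neutrophil markers in pericyte-like cells also moved, from 25.1 to 204 CPM over 10 markers with 7 and 2 at 0. In the non-myelinating glia the 12 fibrocyte markers went from 370 to 686 CPM, with 1 and 1 at 0. The mitochondrial share of UMIs was 5.65% and 8.85% in these glia and 5.00% and 7.43% in pericyte-like cells. Their part in the Mt3 ratios was not tested.

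The 2 pairs that were lower had few counts. Mt2 in macrophage-like cells went from 114 to 88.5 CPM (203 and 157 UMIs, 0.773, 0.624 to 0.957), and Cp in organ of Corti supporting cell-like cells from 35.3 to 27.5 CPM (66 and 50 UMIs, 0.780, 0.529 to 1.14). Tfrc in the same cells went from 34.7 to 46.8 CPM (1.35), with an interval of 0.964 to 1.89, and 2.46 in cells thinned to 1000 UMIs. The intervals of these Cp and Tfrc ratios include 1. With predicted doublets kept, Mt2 was at 1.28 and Cp at 1.15, and thinned Cp at 1.56, on the other side of 1. The macrophage-like Mt2 ratio joined 0.775 (0.578 to 1.04) in cluster 9, 1.105 (0.733 to 1.65) in cluster 22 and 0.904 (0.512 to 1.57) in cluster 31.

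Smaller classes showed larger ratios of single genes. In osteoblast- or osteocyte-like cells (528 and 284 cells) Mt1 went from 1020 to 1881 CPM, 1.84-fold (1.72 to 1.98), and Mt2 from 213 to 690, 3.24-fold (2.81 to 3.73), or 1.68-fold with finer clustering (Leiden resolution 2). There 1 drug-then-noise cell held 13.0% of the Mt1 and 13.3% of the Mt2 UMIs, and the share of thinned cells with a Mt1 UMI went from 40.3% to 56.7%. Mt1 per Mt2 in this class went from 4.79 (4.25 to 5.42) to 2.73 (2.47 to 3.02). In oligodendrocyte-like cells (254 and 307 cells) Mt1 went from 623 to 1158 CPM, 1.86-fold (1.68 to 2.07), while Fth1 had a ratio of 0.790 (0.776 to 0.804). Summed erythroid markers, haemoglobins included, moved in both classes, from 6650 to 13073 CPM in osteoblast- or osteocyte-like cells with 5 and 3 of 10 markers at 0, and from 8115 to 15559 in oligodendrocyte-like cells with 5 and 5 at 0. Their part in these ratios was not tested.

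In keratinized or mucosal epithelium-like cells (133 and 226 cells) 7 of the 8 genes had at least 100 UMIs. Cp, Trf and Fth1 were higher and Mt3 lower. The share of all genes past the fold was not counted in this class. Cp went from 72.1 to 420 CPM, 5.82-fold (4.47 to 7.71), Trf from 20.9 to 151, 7.21-fold (4.44 to 12.4; 4.39 to 11.7 over the alternatives), and Fth1 from 7718 to 13125, 1.70-fold (1.65 to 1.75). Ftl1 in the same cells had a ratio of 1.07, Tfrc 0.603 on 20 and 17 UMIs, Mt1 0.941 and Mt3 0.633 (0.479 to 0.837). The 6 markers that named the class also differed between the libraries, summing to 2281 and 4546 CPM, and their part in these ratios was not tested. Spiral ganglion neuron-like cells, with about the same number of cells in both libraries (458 and 459), had ratios of 0.878 for Mt1, 0.798 for Mt2, 0.938 for Mt3, 0.952 for Fth1 and 1.12 for Tfrc. In hair cell-like cells Mt3 went from 195 to 413 CPM, 2.12-fold (1.57 to 2.87) on 68 and 136 UMIs, and was at 0.999 without the 1% of cells richest in it.

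Of 72 further genes of metal handling, 62 had at least 100 UMIs over all cells, and 11 were higher and 2 lower, where 7.57% of all genes were higher and 6.86% lower. Their median log2 ratio was -0.01, beside -0.04 over all genes. The largest were Lcn2, the siderophore-binding lipocalin, from 48.7 to 301 CPM (6.19), and Ltf, the secreted iron binder lactotransferrin, from 35.8 to 214 (5.98). Keratinized or mucosal epithelium-like and neutrophil-like cells held most of both: the epithelium had 73.0% and 72.5% of the Ltf UMIs and 4.98% and 44.2% of the Lcn2 UMIs, and neutrophil-like cells 73.2% and 52.8% of the Lcn2 UMIs. Both classes had more cells in the drug-then-noise library (133 and 226, 142 and 221), and over all cells the 10 neutrophil markers summed to 2325 and 5640 CPM with none at 0. Their part in these ratios was not tested. Cpox, a haem synthesis enzyme, had 0.663 and Steap2, a metal reductase, 0.686. By class, 37 of the 72 were counted in myelinating Schwann-like cells, with 1 higher and 1 lower beside 6.04% and 9.09% of all genes. Of 39 in fibrocyte-like cells 2 were higher and 6 lower (8.60% and 13.2% of all genes), and of 30 in endothelial-like cells 3 and 1 (5.29% and 7.72%). Macrophage-like cells had 5 higher and 1 lower of 26 (9.45% and 10.1%), organ of Corti supporting cell-like cells 2 and 3 of 23 (7.92% and 10.2%), and pericyte-like cells 1 and 0 of 10 (6.48% and 13.9%).

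The named genes of the list were mostly single cases. In macrophage-like cells Hmox1, which breaks down haem, went from 151 to 293 CPM (1.94, 1.67 to 2.26), and Hp, the haemoglobin binder haptoglobin, had 1.65. The summed erythroid markers in these cells stood at 12129 and 6844 CPM, with 3 and 1 of 10 at 0. In fibrocyte-like cells Lcn2 had a ratio of 0.295 and Steap3, an endosomal iron reductase, 0.636, while Slc30a5, a zinc transporter, had 1.44 and Fech, which inserts iron into haem, 1.31. In endothelial-like cells Fbxl5, which marks iron regulatory protein for degradation, had 1.59, and Hfe, a partner of the transferrin receptor, 0.630. In myelinating Schwann-like cells Cpox had 0.567 and Alas1, the first haem synthesis enzyme, 1.30, with an interval of 0.871 to 1.93. In organ of Corti supporting cell-like cells Hamp, the iron hormone hepcidin, had 1.40 and Tmprss6, a protease that restrains hepcidin, 0.781 (0.559 to 1.09). There 1 drug-then-noise cell held 15.9% of the Hamp UMIs. In drug-then-noise macrophage-like cells the richest cell held 11.4% of the Hmox1 and 11.1% of the Hp UMIs. In fibrocyte-like cells 1 noise-only cell held 14.4% of the Lcn2 UMIs. Sod1, the copper- and zinc-bearing superoxide dismutase, had 1.39 in pericyte-like cells, with an interval of 0.957 to 2.05.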

How the data were processed

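Both libraries were made with 10x Genomics 3′ chemistry version 3.1, per the labels' protocols, and what the authors deposited is unscaled UMI counts for each gene and cell. Reads were counted with Cell Ranger 5.0.1, per the file headers, and the submitters' processing notes name the builds GRCm38 and mm10, with Seurat 3.2.2, STAR and Cell Ranger 5.0. UMI counts are per molecule and not scaled to length. Samples were grouped by their titles, with 1 library per group.

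Cells were kept with at least 300 genes, at least 500 UMIs and at most 20% mitochondrial UMIs. Scrublet was run per library (expected rate 0.08) and removed 805 noise-only cells (4.62%) and 2597 drug-then-noise cells (12.9%), at thresholds of 0.264 and 0.164. Both libraries were clustered together, without integration, with scanpy 1.11.5 and leidenalg 0.10.2 (3000 variable genes chosen within each library, 30 principal components, 15 neighbours, resolution 1). The 8 genes and the metal list were left out of the variable genes. A cluster was named from at least 3 markers at 2 times the level of other cells in at least 10% of its cells, with a marker among its 10 leading genes. Markers were listed for 31 types.

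UMIs were summed per class and library. CPM have exact Poisson intervals, ratios exact conditional binomial intervals and shares exact Clopper-Pearson intervals, all at 95%, covering counting error only. Thinning drew 1000 UMIs per cell and left out 7320 noise-only and 7662 drug-then-noise cells below that depth. The ratio step was tested on simulated counts. TMM factors came from edgeR 4.0.16 in R 4.3.3, used on summed counts for an alternative scaling, not a test. Gene bounds came from GENCODE M21, in which 32158 of 32285 gene identifiers were found.

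All 8 genes are named. From the metal list up to 2 genes in each direction are named for all cells and for each of the 6 largest classes: those with 50 or more UMIs in the library that has more, past the fold, with at most 20% of UMIs in 1 cell and the interval bound furthest from 1. The 3 genes most like each of the 8 by Pearson r had at least 500 UMIs. The 8 genes, the lists and the rules were chosen with earlier results of these data known.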

Additional observations from a re-analysis of the deposited data

Results flagged for a closer look

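For 7 of the 8 genes the ratio of drug-then-noise to noise-only was past the fold upward (at least 25% above) in one compared class and downward (at least 20% below) in another, among pairs with at least 100 UMIs. The share of all genes that meet this rule over the compared classes was not counted, so 7 of 8 is not shown to be unusual. With 1 library per group none of these differences between classes was tested. Mt2 stood at 3.24 in osteoblast- or osteocyte-like cells and 0.600 in vascular smooth muscle-like cells. Mt3 stood at 2.49 in neutrophil-like and 0.633 in keratinized or mucosal epithelium-like cells. Fth1 was at 1.70 in keratinized or mucosal epithelium-like and 0.790 in oligodendrocyte-like cells, and Ftl1 at 1.31 in T or NK-like and 0.796 in neutrophil-like cells. For Cp the values were 5.82 in keratinized or mucosal epithelium-like and 0.639 in non-myelinating Schwann- or satellite glia-like cells. For Tfrc they were 1.35 in organ of Corti supporting cell-like and 0.774 in erythroid-like cells, and for Trf 7.21 in keratinized or mucosal epithelium-like and 0.697 in spiral ganglion neuron-like cells. Mt1 was never below 0.858.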

How the results depend on the processing

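Over 14 alternatives, 25 of the 37 ratios past the fold (of 133 with at least 100 UMIs) stayed on the same side of 1 wherever they could be computed, and 16 also stayed past the fold. Trf in fibrocyte-like cells ran from 2.00 (mean of the CPM of each cell) to 4.58, Trf over all cells from 1.30 to 1.99, Mt3 in non-myelinating Schwann- or satellite glia-like cells from 1.65 to 2.48 and Mt1 in oligodendrocyte-like cells from 1.79 to 2.12.

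The other ratios past the fold crossed 1 under at least one alternative, and the cause was not tested. Among cells with at least 1000 genes the crossings were Mt2 (1.51) and Mt3 (0.675) in vascular smooth muscle-like, Mt3 in endothelial-like (0.963), and Cp (0.431) and Trf (0.129) in erythroid-like cells. With at least 500 genes it was Trf in non-myelinating Schwann- or satellite glia-like cells (0.914), and with at most 10% mitochondrial UMIs Mt3 in other cochlear epithelium-like cells (0.921). With predicted doublets kept they were Mt2 in macrophage-like (1.28), Mt3 in keratinized or mucosal epithelium-like (1.98), Cp in organ of Corti supporting cell-like (1.15) and Trf in spiral ganglion neuron-like cells (2.41). Thinned to 1000 UMIs they were Mt3 in endothelial-like (0.924) and keratinized or mucosal epithelium-like (1.26), Cp in organ of Corti supporting cell-like (1.56), and Trf in non-myelinating Schwann- or satellite glia-like (0.422) and spiral ganglion neuron-like cells (3.50). Without the 1% of cells richest in the gene they were Mt3 in hair cell-like (0.999) and Trf in spiral ganglion neuron-like cells (1.32).

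Over all cells 2 genes in place of 1 were higher with at most 10% mitochondrial UMIs, with TMM factors, without mitochondrial UMIs in the denominator, as the mean of the CPM of each cell, and without the richest 1% of cells. In the 6 largest classes, the 7 higher pairs became 14 with predicted doublets kept and 12 with thinned cells. The 2 lower pairs became 0 with at least 500 genes, with doublets kept and at 1.5-fold, 1 with at most 10% mitochondrial UMIs, with the 8 genes kept among variable genes and as a mean over cells, and 4 with at least 1000 genes. Among pairs not past the fold in these classes, Mt2 in pericyte-like cells ran from 0.665 (at least 1000 genes) to 1.66 (thinned), and with doublets kept Mt3 reached 1.55 in fibrocyte-like and 1.48 in macrophage-like cells and Cp 1.62 in macrophage-like cells. Counts of pairs under cluster weights were not run, since only some classes hold several clusters. Over all cells, 12.0% of genes were higher and 9.80% lower at a minimum of 20 UMIs, and 21.0% and 17.6% with no minimum. No paired analysis was possible because the ears of all animals were pooled into 1 library per group. Depth limits Tfrc most, with under 100 UMIs in 11 of 19 classes.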
